A study of Arabidopsis thaliana with 4 samples.

Results

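A set of 29 nuclear genes reached at least 1 RPKM (reads scaled to exon length and to the library's reads) in the comparison of hda6/ldl1/2 with WT and stayed under 0.5 RPKM in the comparisons of hda6 with WT and of ldl1/2 with WT. They were taken from the 34262 genes that each of the authors' 3 tables lists, 33940 of them on chromosomes 1 to 5. The same thresholds take 31 genes, and FWA and FUS3 were left out by name. The genes were selected on measured values, the larger of both group means printed in each comparison, so their high level in hda6/ldl1/2 and their low level elsewhere are a description and carry no test. The samples were Arabidopsis thaliana seedlings of the Col-0 ecotype, grown in long days at 22 °C for 14 days. The labels give 4 genotypes, WT, hda6, ldl1/2 and, joining both, hda6/ldl1/2, with no allele and no treatment named. With 1 sample listed per genotype, no comparison below has a replicate test of its own. The phrase that these genes are active in hda6/ldl1/2 alone holds for a level of 1 RPKM but not for detection, since 15 of the 29 had at least 5 hda6 reads and a deposited log2 fold change of at least 1 there, beside 16.9% of the other low genes defined below. By the deposited FDR, 4 of the 29 (13.8%) rose in hda6, where 4.05% of all genes with a fold change rose.

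HDA6 is a histone deacetylase that keeps transposons, repeats and some genes silent, together with DNA methylation. LDL1 and its close relative LDL2 belong to the LSD1 family of enzymes, which take methyl groups off a lysine of histone H3 that marks active genes. Both kinds of enzyme take away marks of active chromatin, and they are known to occur together in repressor complexes. Genes near centromeres lie among transposons in densely methylated chromatin, and many of them give no transcript in a seedling.

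The transcripts of the targeted genes did not all follow the labels. In the authors' deposited table of ldl1/2 with WT, LDL1 (AT1G62830) fell with a log2 fold change of -0.79 (FDR 2.52e-05) and LDL2 (AT3G13682) with one of -1.17 (FDR 0.000182). For hda6/ldl1/2 the authors' deposited table gives LDL1 at 0.05 and LDL2 at -0.32, neither past an FDR of 0.05. HDA6 (AT5G63110) rose in the authors' deposited table of hda6 with WT, by 0.53 in log2 (FDR 0.000179), and in that of hda6/ldl1/2 with WT, by 0.59 (FDR 1.03e-05). Without the alleles, the transcript levels do not show whether a protein was lost. The group is therefore called the libraries labelled hda6/ldl1/2.

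Promoters are shown for 4 of the 10 members with the highest level in hda6/ldl1/2, as examples of the start regions of genes that came up together from a silent or near-silent state. Each is the stretch from 250 bases before to 50 bases after the annotated start, read 5′ to 3′ on the gene's strand from the TAIR10.1 reference. Capitals mark a match to one of the motifs counted further below. AT4G06643, an uncharacterized protein gene without WT reads, has its promoter at chr4:3758707-3759006 on the plus strand, with 18 CG dinucleotides and none of the motifs. AT2G06425, annotated as a transposase of the En/Spm kind, has its promoter at chr2:2572694-2572993 on the minus strand, and the capitals mark a CCA1 site. AT3G30823, an uncharacterized protein gene, has its promoter at chr3:12562050-12562349 on the minus strand and none of the motifs. GATA13 (AT2G28340), a member of the GATA zinc finger family of transcription factors, has its promoter at chr2:12103422-12103721 on the plus strand, with TATAAA on the opposite strand in capitals.
AT4G06643: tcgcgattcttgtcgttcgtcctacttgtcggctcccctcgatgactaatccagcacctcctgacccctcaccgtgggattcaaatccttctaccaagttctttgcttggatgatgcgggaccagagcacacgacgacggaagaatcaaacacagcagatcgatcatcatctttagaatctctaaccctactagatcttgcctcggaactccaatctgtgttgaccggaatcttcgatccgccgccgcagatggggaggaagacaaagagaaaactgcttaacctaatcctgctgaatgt
AT2G06425: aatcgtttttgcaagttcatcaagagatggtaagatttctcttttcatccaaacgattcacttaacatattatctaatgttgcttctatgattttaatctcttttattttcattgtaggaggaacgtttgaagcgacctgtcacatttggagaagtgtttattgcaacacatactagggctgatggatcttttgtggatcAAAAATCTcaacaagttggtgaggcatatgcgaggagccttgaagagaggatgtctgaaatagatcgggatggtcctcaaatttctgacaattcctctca
AT3G30823: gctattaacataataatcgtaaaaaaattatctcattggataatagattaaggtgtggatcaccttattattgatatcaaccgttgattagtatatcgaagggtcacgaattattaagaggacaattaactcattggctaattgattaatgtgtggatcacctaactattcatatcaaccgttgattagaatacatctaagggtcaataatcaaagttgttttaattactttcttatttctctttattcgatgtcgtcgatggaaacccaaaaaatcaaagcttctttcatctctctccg
GATA13: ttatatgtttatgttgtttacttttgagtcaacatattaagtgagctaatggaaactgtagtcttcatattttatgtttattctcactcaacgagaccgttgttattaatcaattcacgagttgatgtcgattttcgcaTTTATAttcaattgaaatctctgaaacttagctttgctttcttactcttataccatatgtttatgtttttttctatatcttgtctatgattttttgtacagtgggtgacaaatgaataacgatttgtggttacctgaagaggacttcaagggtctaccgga

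The group means could be turned back into whole reads. Dividing each low mean by what 1 read is worth at the gene's exon length gave the mean of 3 WT libraries and of 2 libraries for each mutant, with 40.2 to 51.6 M reads in each of the 9 libraries. With a relative tolerance of 1e-10, 95.2% of 19823 low values came out as whole reads. The share was 88.0% for hda6/ldl1/2 and 97.4% to 99.3% for the other groups. A part of the values was tried again with an exon length that was wrong by 1 base, and none of these came out. The hda6/ldl1/2 libraries are called library 1 (43.8 M reads) and library 2 (49.4 M reads). No source used here says whether they come from different plants or from 1 RNA sample sequenced again, and the deposited p-values may thus measure a technical spread. Group means are those of the authors' deposited tables where these print them and are otherwise computed from the rebuilt reads; values per library are computed from the reads. The reads of a pair were counted separately, as 78.7% of low WT values were even. Counting intervals below are exact Poisson intervals (95%) and cover counting error only. In bulk seedlings, more cells that express a gene and more RNA per cell cannot be told apart.

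Most members were silent or close to it in WT. No read fell on 17 of the 29 over the 3 WT libraries, which was read directly for 12 and rebuilt from the deposited fold change for 5. The other 12 had 2 to 52 WT reads, a median of 12. Among these, the WT reads of PHE1, AT2G04190, AT2G05350, AT2G25330, AT2G24870 and AT5G40382 were rebuilt in the same way and the rest read directly. Also rebuilt were the hda6 reads of GATA13 and AT4G33467. So were the ldl1/2 reads of AT1G27860, AT2G12205, AT4G19240, AT5G01300 and AT4G33467. In the libraries labelled hda6/ldl1/2 the 29 members had 35 to 727 reads and a median group mean of 1.82 RPKM, with 6.25 RPKM the highest in the authors' deposited table. By the authors' deposited FDR, 28 of the 29 rose there, where 8.61% of all genes with a fold change did, and all 29 passed a log2 fold change of 1, where 9.85% of all genes and 36.8% of other low genes did. This contrast chose them, so nothing is read from these counts. The exception was AT4G33467, an uncharacterized protein gene with 59 and 18 reads in the libraries labelled hda6/ldl1/2, 40 reads in WT and a deposited FDR of 0.0715.

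**Figure D1:**
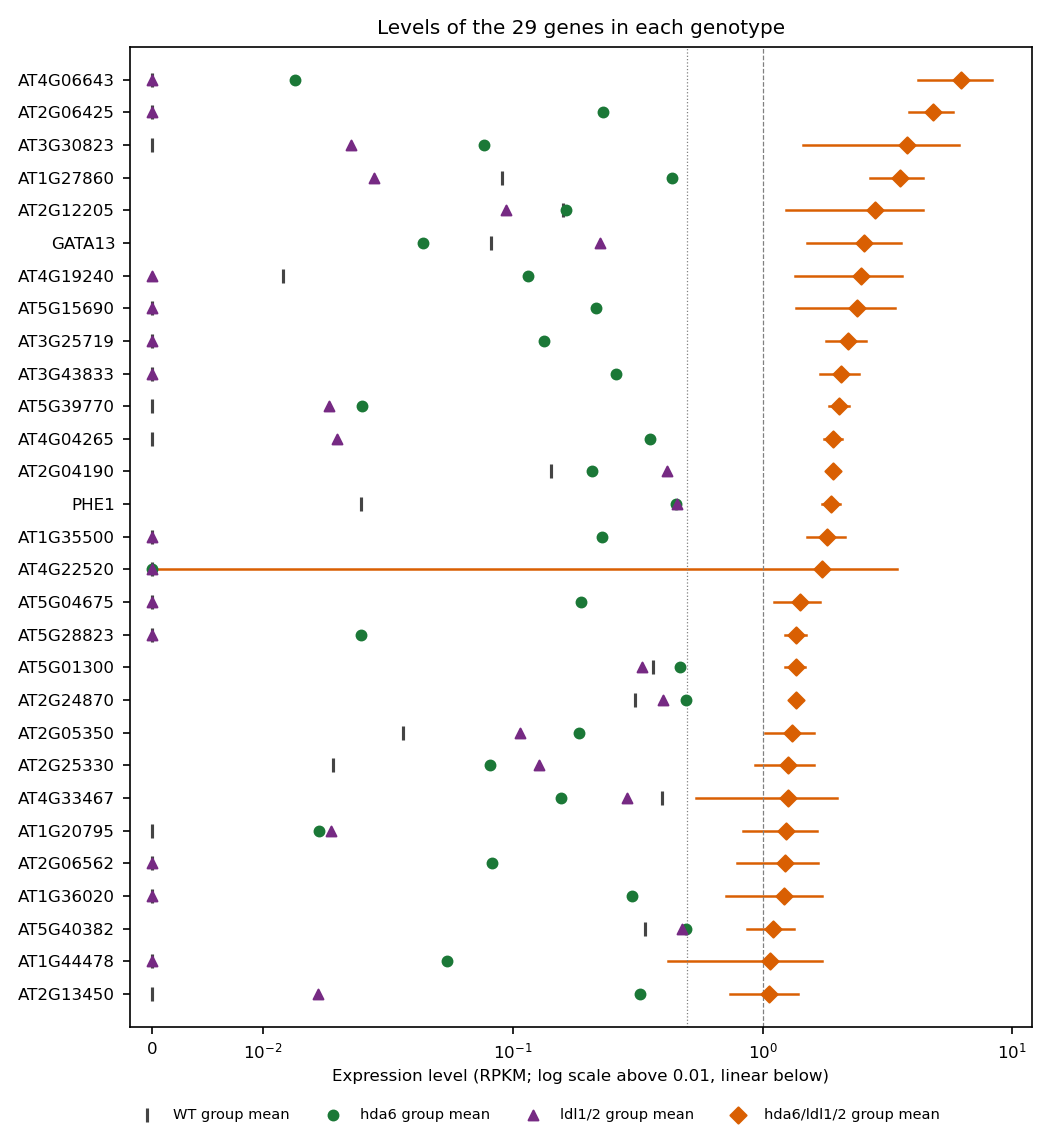
Group mean level of each of the 29 genes in each genotype (RPKM, log scale above 0.01 and linear below), ordered by the hda6/ldl1/2 level. Orange lines join both hda6/ldl1/2 libraries, the dotted line is the ceiling of 0.5 RPKM and the dashed line the minimum of 1 RPKM. WT marks of 17 genes lie at 0, hidden in part by the ldl1/2 marks, and the hda6 mark lies to the right of the ldl1/2 mark for most of these.

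The highest member, AT4G06643 (chromosome 4, 3758957 to 3759880), had no read in WT, 1 read over the hda6 group, none in ldl1/2, and 145 and 322 reads in the libraries labelled hda6/ldl1/2. That is 4.21 RPKM in library 1 and 8.30 in library 2. The group mean of 6.25 RPKM (counting interval 5.60 to 7.26) was 123 times the WT floor of 3 read pairs (6 reads) over the group. That floor is 0.0507 RPKM for this gene, while the counting interval of its WT level reaches 0.0623. A fold over the floor is therefore no bound on the fold over WT. AT2G06425 (chromosome 2, 2571928 to 2572743) had no read in WT and ldl1/2, 11 and 3 reads in the hda6 libraries, and 163 and 123 in the libraries labelled hda6/ldl1/2. Transposases of the En/Spm kind move DNA transposons, and this gene was the second highest member. AT3G30823 (chromosome 3, 12560822 to 12562099) had no WT read, 2 reads in each hda6 library, 1 read over ldl1/2, and 35 and 167 reads in the libraries labelled hda6/ldl1/2. Its libraries labelled hda6/ldl1/2 stood 4.23 times apart, the widest ratio among the 28 members with reads in both.

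AT1G27860, which carries a domain of unknown function, differed from these in having 12 WT reads; it had 11 and 25 reads in the hda6 libraries, 2 over ldl1/2, and 167 and 116 in the libraries labelled hda6/ldl1/2. AT2G12205 is a short gene of 129 exon bases, so its 7 and 28 reads in the libraries labelled hda6/ldl1/2 already gave 2.82 RPKM. It had 3 reads in WT, 2 over hda6 and 1 over ldl1/2, and neither separate mutant can be told from WT at that depth. GATA13 had 12 WT reads, 4 over hda6, 6 and 12 in the ldl1/2 libraries, and 152 and 72 in the libraries labelled hda6/ldl1/2. AT4G19240, an uncharacterized protein gene, had 2 WT reads, 4 and 8 in the hda6 libraries, none in ldl1/2, and 65 and 196 in the libraries labelled hda6/ldl1/2. Its fold over WT was 206, and the 2 WT reads give that ratio a counting interval of 36.9 to 8110.

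The remaining 3 of the 10 highest members had no read in WT or in ldl1/2. AT5G15690, annotated as a zinc ion binding protein, had 2 and 10 reads in the hda6 libraries and 35 and 98 in the libraries labelled hda6/ldl1/2. The uncharacterized AT3G25719 had 3 reads in the first hda6 library and none in the second, against 27 and 21 in the libraries labelled hda6/ldl1/2. The uncharacterized AT3G43833 had 10 and 14 reads in hda6 and 104 and 82 in the libraries labelled hda6/ldl1/2. In all 3 genes each library labelled hda6/ldl1/2 held more reads than any hda6 library. Over the 17 members without WT reads the fold of the libraries labelled hda6/ldl1/2 over the WT floor ran from 10.8 to 195, with a median of 34.9. The value of 195 belonged to AT5G39770, a long gene (3819 exon bases) annotated with a restriction endonuclease-like fold. It had 308 and 419 reads in the libraries labelled hda6/ldl1/2, 3 and 6 in hda6 and 6 over ldl1/2.

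Another 5 members without WT reads had group means of 1.23 to 1.82 RPKM in the libraries labelled hda6/ldl1/2. AT1G35500, uncharacterized, had 8 and 1 reads in hda6, none in ldl1/2, and 39 and 31 in the libraries labelled hda6/ldl1/2. The lncRNA AT5G04675 had 4 reads in each hda6 library and 22 and 38 in the libraries labelled hda6/ldl1/2. AT5G28823, uncharacterized, had 4 reads in the second hda6 library alone and 112 and 104 in the libraries labelled hda6/ldl1/2. These 3 genes had no ldl1/2 read. AT1G20795, an F-box gene, had 2 reads over hda6, 2 over ldl1/2, and 91 and 52 in the libraries labelled hda6/ldl1/2. The ncRNA AT2G06562 had 2 and 6 reads in hda6, none in ldl1/2, and 75 and 40 in the libraries labelled hda6/ldl1/2. No hda6 library of the 5 genes held as many reads as either library labelled hda6/ldl1/2.

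Both libraries labelled hda6/ldl1/2 were at or above 1 RPKM for 20 of the 29 members and at or above 0.5 RPKM for 27. The libraries were within 2 times of each other for 19 members, and the median ratio of the higher to the lower was 1.60 over the 28 with reads in both. Library 1 was the higher for 15 members and library 2 for 14. AT4G22520, a gene of the lipid-transfer and seed storage superfamily, had 54 reads in library 1 and none in library 2, and it had no read in any other genotype. Its level of 1.73 RPKM rests on that 1 library. The other member with a library under 0.5 RPKM was AT1G44478, a cyclophilin gene, with 44 and 12 reads.

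**Figure D2:**
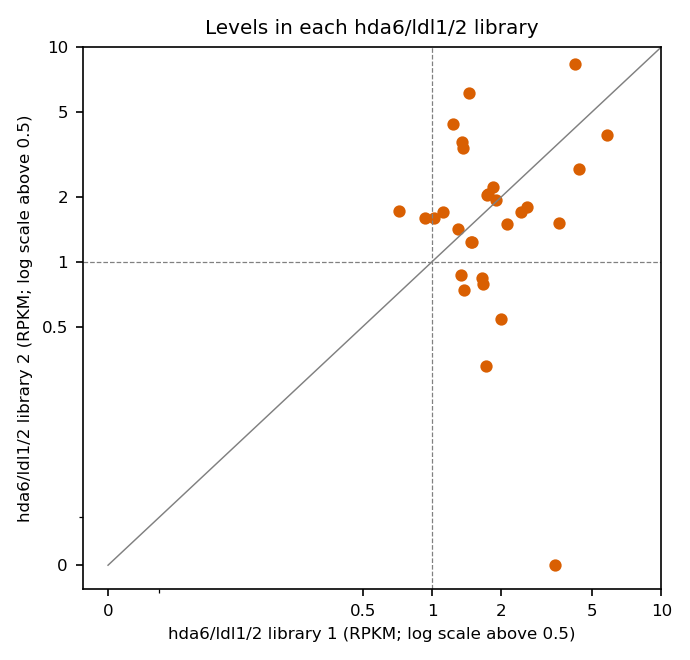
Level of each member in library 1 (x axis) and library 2 (y axis) of hda6/ldl1/2, in RPKM on scales that are logarithmic above 0.5. Dashed lines mark 1 RPKM and the diagonal marks equal levels; 20 points lie above both dashed lines, and AT4G22520 lies at 0 in library 2.

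Small rises in the separate mutants were seen in hda6 more often than in ldl1/2. By the rule of size, a deposited log2 fold change of at least 1, 21 of the 29 members were higher in hda6 than in WT, beside 7.38% of all 24905 genes with a fold change. A nearer comparison is with the 4266 other low genes, which were under 0.5 RPKM in both separate comparisons and under 1 in that of hda6/ldl1/2, and of which 28.6% were higher in hda6. A single read can be enough for this call, as for AT4G06643 which had 1 hda6 read and for which the authors' deposited table has 2.35 in log2. With at least 5 hda6 reads asked for as well, the count was 15 of 29, beside 16.9% of the other low genes. The hda6 level itself was part of the rule, as a ceiling. Reads were present in both hda6 libraries for 21 members. That count was not made over the other low genes, so nothing is read from it. By the authors' deposited FDR, 4 members (13.8%) rose in hda6, where 4.05% of all genes rose: AT1G27860, PHE1, AT2G05350 and AT2G13450. The share over the other low genes was not counted.

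The 17 members without WT reads show this most directly. Of these, 16 (94.1%) had at least 1 hda6 read and 10 (58.8%) had at least 5, and the median was 8. Of the 1183 other low genes without WT reads, 591 had an hda6 read and 182 (15.4%) had at least 5. Such genes are counted only through reads in a mutant, hda6 included, which raises these shares. AT2G13450, annotated as a Ta11-like non-LTR retrotransposon, went furthest, with 30 and 16 reads in the hda6 libraries and 91 and 55 in the libraries labelled hda6/ldl1/2. Its hda6 rise was 30.4% of its rise in the libraries labelled hda6/ldl1/2, the largest such share among the 29. AT4G04265, the other member annotated as a transposase of the En/Spm kind, had 4 and 16 reads in hda6, 1 over ldl1/2, and 46 and 61 in the libraries labelled hda6/ldl1/2. AT1G36020, annotated as a DEAD-box RNA helicase, had 4 and 6 reads in hda6, none in ldl1/2, and 11 and 30 in the libraries labelled hda6/ldl1/2. In these 3 genes the hda6 reads came from both libraries.

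Rises in ldl1/2 were fewer. By the same rule of size 10 of the 29 members were higher in ldl1/2, beside 6.39% of all genes and 24.2% of the other low genes. With at least 5 ldl1/2 reads the count was 6, beside 14% of the other low genes. Of the 17 members without WT reads, 5 (29.4%) had any ldl1/2 read and 1 (5.88%), AT5G39770, had at least 5. Among the 1183 other low genes without WT reads the shares were 39.6% and 8.88%. Those genes are counted only through reads in a mutant, ldl1/2 included, which raises their shares. The comparison therefore cannot show whether ldl1/2 reads precede the members. For 12 members neither WT nor ldl1/2 had a single read, and 11 of these 12 had reads in hda6, 7 of them at least 5. Of the 715 other low genes without WT and ldl1/2 reads, 57.1% had an hda6 read and 15.1% had at least 5. These 715 are counted only through reads in hda6 or hda6/ldl1/2, which raises both shares. By the authors' deposited FDR, 3 members rose in ldl1/2, where 3.75% of all genes rose: AT2G04190, AT2G25330 and PHE1.

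Members with WT reads also had more ldl1/2 reads, a median of 17, which is not in itself a rise. Their ldl1/2 rise was a median of 5.60% of the rise in the libraries labelled hda6/ldl1/2, and their hda6 rise 7.49%. AT1G27860, AT2G12205, AT4G19240, AT5G01300 and AT4G33467 lay below WT in ldl1/2. PHE1 (AT1G65330, chromosome 1, 24266257 to 24267336), an imprinted MADS-box transcription factor gene known from the endosperm, had 4 reads in WT, 26 and 20 in the hda6 libraries, 32 and 8 in the ldl1/2 libraries, and 82 and 109 in the libraries labelled hda6/ldl1/2. Its means were 0.449 RPKM in hda6 (counting interval 0.285 to 0.674), 0.455 in ldl1/2 (0.273 to 0.691) and 1.89 in the libraries labelled hda6/ldl1/2, and no mutant library fell to the WT mean of 0.0246 RPKM. PHE1 was the only member past the deposited FDR in both separate comparisons, which share their WT libraries. AT2G04190 and AT2G25330, a pair of TRAF-like family genes, were nearer to the libraries labelled hda6/ldl1/2 in ldl1/2 than in hda6. AT2G04190 had 36 WT reads, 25 and 8 in hda6, 28 and 30 in ldl1/2, and 140 and 161 in the libraries labelled hda6/ldl1/2. AT2G25330 had 6 WT reads, 14 and 2 in hda6, 11 and 11 in ldl1/2, and 85 and 165 in the libraries labelled hda6/ldl1/2. In both genes the ldl1/2 libraries were closer to each other than the hda6 libraries were. GATA13 and AT2G04190 were the 2 members that the rule of size called in ldl1/2 and not in hda6.

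The uncharacterized AT2G05350 leaned on hda6 instead, with 10 WT reads, 21 and 11 in hda6, 10 and 6 in ldl1/2, and 82 and 145 in the libraries labelled hda6/ldl1/2. By the rule of size alone, 8 members were higher in both separate mutants, beside 9.96% of the other low genes, and 13 in hda6 and not in ldl1/2, beside 18.7%. In the other direction there were 2, beside 14.3%, and 6 were higher in neither, beside 57.1%. These counts depend on single reads: with at least 5 reads asked for, 4 were higher in both (4.97% of the other low genes) and 12 in neither (74.1%). With a pseudocount of 0.1 RPKM, 16 were higher in neither.

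The 6 members called in neither by the rule of size alone were AT2G12205, AT4G22520, AT4G33467, AT2G24870, AT5G01300 and AT5G40382. AT2G24870, of the plant self-incompatibility S1 family, had 14 WT reads, 8 and 6 in hda6, 4 and 6 in ldl1/2, and 17 and 21 in the libraries labelled hda6/ldl1/2. AT5G01300, of the phosphatidylethanolamine-binding protein family, had 52 WT reads, 34 and 8 in hda6, 26 over ldl1/2, and 62 and 58 in the libraries labelled hda6/ldl1/2. AT5G40382, a gene for cytochrome c oxidase subunit Vc, had 26 WT reads, 8 and 16 in hda6, 12 and 8 in ldl1/2, and 30 and 22 in the libraries labelled hda6/ldl1/2. These folds over WT were the small ones, at 4.37, 3.75 and 3.27, and 3.20 for AT4G33467. AT5G01300 overlaps AT5G01290 (10.9 RPKM in the authors' deposited table) by 87 bases, and AT5G40382 overlaps CRK42 (3.88 RPKM there) by 130 bases, each on the other strand. AT4G22520 lies wholly within AT4G22530 (8.72 RPKM) on the other strand. No strand setting is stated for the counting, so reads in these overlaps cannot be assigned to a strand. AT4G22530 stood at 6.86 RPKM in WT and 8.52 in ldl1/2, where AT4G22520 had no read.

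**Figure D3:**
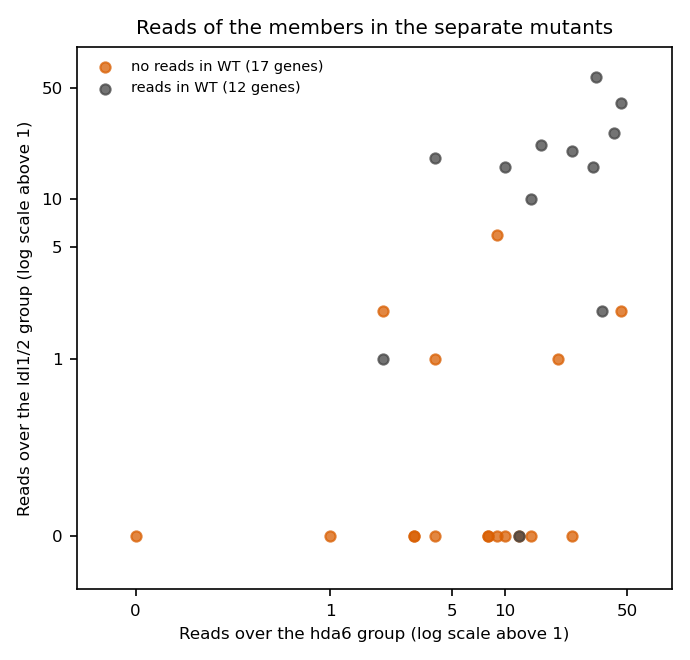
Reads of each member over the hda6 group (x axis) and over the ldl1/2 group (y axis), both logarithmic above 1. The 17 genes without WT reads (orange) lie along the bottom, with 0 to 46 hda6 reads and at most 6 ldl1/2 reads; the genes with WT reads (grey) have up to 58 ldl1/2 reads.

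Measured against the rise in the libraries labelled hda6/ldl1/2, the separate rises were small. The hda6 rise over WT was a median of 6.08% of the rise in the libraries labelled hda6/ldl1/2, and the ldl1/2 rise a median of 0%. Added together they came to under 10% of it for 17 members and to over 25% for 4. The latter were PHE1 (45.9%), AT5G40382 (38.4%), AT2G13450 (32.0%) and AT2G24870 (26.1%). The mean lay above WT and was higher in hda6 than in ldl1/2 for 22 members, and above WT and higher in ldl1/2 than in hda6 for 5. None of these counts was made over the other low genes. By the rule of size, 18.7% of those were higher in hda6 and not in ldl1/2, and 14.3% the other way. AT4G33467 lay below WT in both, and AT4G22520 was at 0 reads in both. That all 29 lie above the sum of both separate rises on the RPKM scale follows from the thresholds, since neither separate level reaches 0.5 while the hda6/ldl1/2 level reaches 1.

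The thresholds also favour an excess on the log2 scale, so the following is a description of the chosen values and no sign of how both mutations combine. With groups under 6 reads set to 6, the log2 ratio of the libraries labelled hda6/ldl1/2 to WT exceeded the sum of both separate log2 ratios for 28 of the 29 members, by a median of 2.16. PHE1 was the exception, at -1.52. The largest excess was 5.50. The floor of 6 reads is divided by the reads of 3 WT libraries but of 2 libraries for a mutant. A gene at the floor in WT and in both separate mutants, such as AT4G22520, thereby gets log2 ratios above 0 without a read. They are 0.667 in hda6 and 0.863 in ldl1/2. These offsets enter the sum, so the sizes of the excess depend on the floor.

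Read in the other direction, a small rise in hda6 seldom led to 1 RPKM. Among all 1200 low genes without WT reads and with a fold change, 17 are the members. The ceiling caps the hda6 level of all of them alike in RPKM, but the genes are grouped here by reads. A short gene reaches the ceiling, and 1 RPKM, with fewer reads than a long one. Exon length can therefore enter these shares, and its part was not tested. The share of members was 0.169% of the 593 genes without an hda6 read, 1.45% of the 415 genes with 1 to 4, 3.92% of the 102 with 5 to 9, and 6.67% of the 90 with 10 or more. The 1 member without an hda6 read was AT4G22520. By ldl1/2 reads, 12 of 727 genes without a read, 4 of 367 with 1 to 4, 1 of 63 with 5 to 9 and 0 of 43 with 10 or more were members. The upper bins hold too few genes to show whether this share has an order. Genes without a read in any genotype have no fold change and are not among the 1200, so a gene without reads in WT and in 1 separate mutant is counted only through its reads elsewhere, hda6/ldl1/2 included.

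Of the 90 genes with 10 or more hda6 reads, 34 had a higher level in the libraries labelled hda6/ldl1/2 than in hda6. AGL86, a MADS-box gene, just missed the minimum, with 36 reads in hda6 and 89 in the libraries labelled hda6/ldl1/2 (0.954 RPKM). AT3G42723 went from 84 to 163 reads and from 0.360 to 0.713 RPKM. Others went the other way, such as the MADS-box genes AGL90, with 44 reads in hda6 and 5 in the libraries labelled hda6/ldl1/2, and AGL36, with 46 and 13. These 4 genes were picked out after their values were seen.

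**Figure D4:**
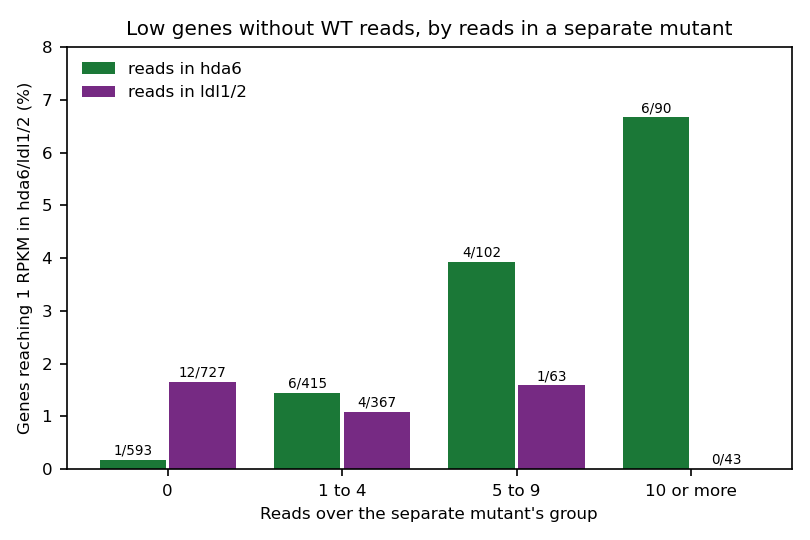
Share of the 1200 low genes without WT reads that reached 1 RPKM in hda6/ldl1/2 (y axis, percent), by the number of reads over the hda6 group (green) or over the ldl1/2 group (purple). The fraction above each bar gives members and genes; the green bars go from 0.169% at 0 reads to 6.67% at 10 or more.

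The same thresholds turned around gave 10 genes that passed 1 RPKM in the hda6 comparison and stayed under 0.5 in the others, and 18 for ldl1/2. A further 112 genes reached 1 RPKM in both the hda6 and the hda6/ldl1/2 comparison and stayed under 0.5 in that of ldl1/2, against 10 that did so with ldl1/2 in place of hda6. Between 0.5 and 1 RPKM in hda6, under 0.5 in ldl1/2 and at least 1 in the hda6/ldl1/2 comparison there were 31 genes, against 15 with hda6 and ldl1/2 exchanged. All 3 comparisons share the WT libraries.

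Members near the thresholds show how the set was cut. Just inside the minimum, the authors' deposited table gives 1.06 RPKM for AT2G13450, 1.07 for AT1G44478 and 1.10 for AT5G40382. Just outside it are AT1G66300 (0.981), AT4G05475 (0.978) and AT3G55580 (0.964). Just inside the ceiling are AT5G40382 (0.494), AT2G24870 (0.492) and AT5G01300 (0.465). Just outside it are AT5G19110 (0.502), AT1G62690 (0.504) and VIM5 (0.508), a relative of the VIM genes for DNA methylation maintenance, which stood at 2.84 RPKM in the hda6/ldl1/2 comparison.

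By annotation, 27 of the 29 members (93.1%) are protein-coding genes, beside 96.1% of the other low genes and 82.6% of all nuclear genes. AT5G04675 (lncRNA) and AT2G06562 (ncRNA) are noncoding. Of the members, 11 have an uncharacterized product and 3 name a transposon. The shares of such products over all genes were not counted, so nothing is read from these numbers. The 3 transposon genes, AT2G06425, AT4G04265 and AT2G13450, all lacked WT reads, as did 17 of the 29 members. All 3 had reads in both hda6 libraries, as did 21 of the 29. Of the 64 TRAF-like genes with a fold change 2 are members, and of the 5 annotated as transposases of the En/Spm kind 2 are. Over all 24905 genes with a fold change, 29 are members. These families were looked up because members carry their names.

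Position was not used by the rule. Within 3 Mb of an approximate centromere centre lay 15 of the 29 members (51.7%), beside 15.7% of the other low genes and 13.5% of all listed nuclear genes. Among the members without WT reads it was 12 of 17 (70.6%), beside 21.6% of the other low genes without WT reads. Among the members with WT reads it was 3 of 12, beside 13.5% of the other low genes with WT reads. The nearest of all was AT4G06643, 0.241 Mb from the centre on chromosome 4. The 112 genes shared by hda6 and the libraries labelled hda6/ldl1/2 were also often near a centromere, at 44.6%. Only 20 other low genes without WT reads reached 0.5 RPKM in the hda6/ldl1/2 comparison, and 4 of those were in the window.

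**Figure D5:**
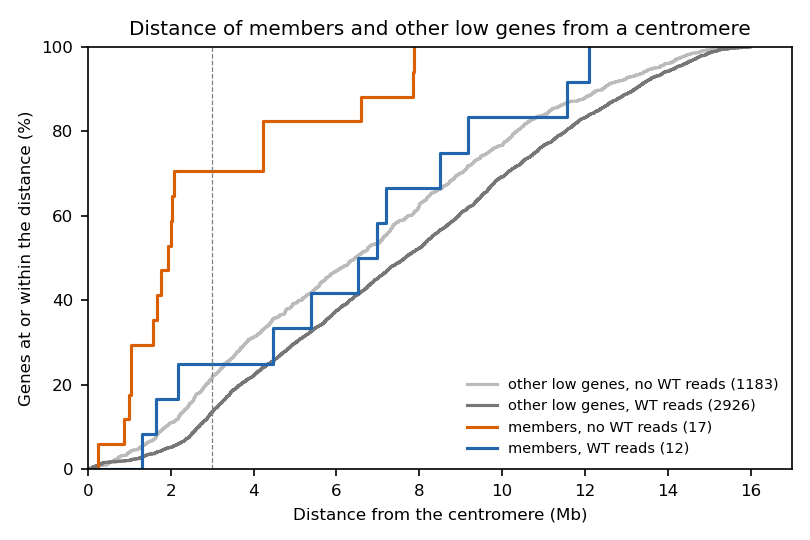
Cumulative share of genes (y axis, percent) by distance of the gene's midpoint from the approximate centromere centre of its chromosome (x axis, Mb). The dashed line marks 3 Mb, within which lay 12 of the 17 members without WT reads (orange) and 3 of the 12 with WT reads (blue), beside 21.6% and 13.5% of the other low genes (grey).

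For 2 of the 29 (6.90%) a nearest listed gene on either side was higher in hda6/ldl1/2 at 1 RPKM or more, beside 3.91% of the other low genes. The first is AT4G04265, whose neighbour AT4G04260, a gene with a bromo-adjacent homology domain, lies 1721 bases away. AT4G04260 followed the same course at 0.0337 RPKM in WT, 0.599 in hda6, 0.160 in ldl1/2 and 2.10 in the libraries labelled hda6/ldl1/2. The second is AT2G13450, whose neighbour AT2G13463 lies 9646 bases away and was higher in hda6 (11.7 RPKM) than in the libraries labelled hda6/ldl1/2 (2.48). With any listed gene within 5 kb counted, the share was again 6.90% of members, beside 6.63% of the other low genes. By that count the second member is AT4G22520, in place of AT2G13450. Its neighbours AT4G22513 (27.6 RPKM in the authors' deposited table) and AT4G22517 (64.0 RPKM), of the same lipid-transfer superfamily, both rose in the libraries labelled hda6/ldl1/2. No pair of members were nearest neighbours.

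Sequence relatives bear on how far reads can be assigned. The nearest relative of AT2G06425 among all genes was AT4G04265, and the reverse, with 77.7% identity over the aligned exons. Near-identical copies, with at least 90% identity over at least 50% of the exons, were found for 3 members, so their values are uncertain. AT5G15690 matches AT4G04775 at 98.6%, AT2G12205 matches AT2G11025 at 97.5% and AT2G13450 matches AT4G02000 at 96.9%. AT2G25330 matches its neighbour AT2G25320 at 87.2% over 98.3% of its exons, and AT2G25320 stood at 6.28 RPKM in WT and 6.90 in hda6. AT2G04190 matches AT5G26280, at 130 RPKM in WT, at 81.6% over 55.0% of its exons. Whether reads of these relatives were counted to the members was not tested. AT4G06643 matches AT2G03965 at 87.1%. AT2G03965 stood at 167 RPKM in hda6, where AT4G06643 had 1 read, and at 145 RPKM in the libraries labelled hda6/ldl1/2, where AT4G06643 had 467. The MADS-box gene next of kin to PHE1, AGL38 (also named PHE2), matches it at 85.6% and did not pass the deposited FDR in any comparison, with 0.0796 RPKM in WT and 0.145 in the libraries labelled hda6/ldl1/2.

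The members were shorter than other low genes, with a median exon length of 786 bases against 1159, and 5 of the 29 (17.2%) had a single exon, beside 27.5% of other low genes and 32.2% of all nuclear genes. A short gene needs fewer reads to pass 1 RPKM. Their promoters held a median of 8 CG dinucleotides in 300 bases, against 6 in other low genes. Both strands of these windows were searched for 5 motifs. The G-box CACGTG was in 3 of 29 member promoters (10.3%) and in 7.03% of all nuclear promoters of the same length. The evening element AAATATCT was in 3 (5.30% of all), the CCA1 site AAAAATCT in 2 (7.42%), the RY element CATGCA in 2 (10.3%) and TATAAA in 14 (50.6%). These matches are descriptions of letters in a window. The evening element and the CCA1 site share the letters ATCT at their end, and neither contains another of the motifs.

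The lists of pathway and organ genes held 1 member, PHE1, among 13 measured endosperm genes. Of these 13, 4 rose in hda6, 2 in ldl1/2 and 3 in the libraries labelled hda6/ldl1/2 by the deposited FDR, and 10 did not pass there. PHE1 is 1 of the 3 and was chosen for its level there. The median log2 fold changes were 0.16, 0.82 and 2.25. Medians were 0.01, -0.01 and 0.02 over all genes and 0.04, -0.04 and 0.33 over the other low genes. Near 0 RPKM a few reads give large values, such as 4.18 for FIS2 at 0.0154 RPKM, so the medians show no rise of the list as a whole. SDC, an F-box gene known for silencing by DNA methylation, showed an order unlike that of the members, at 1.34 RPKM in hda6 and 0.657 in the libraries labelled hda6/ldl1/2. MEA, an imprinted polycomb gene, was highest in ldl1/2, at 1.14 RPKM against 0.153 in WT. Of 17 measured seed and embryo genes 2 rose in hda6, 0 in ldl1/2 and 2 in the libraries labelled hda6/ldl1/2, and 1 fell there. Of 10 measured pollen genes none passed the deposited FDR in any comparison, and 7 more had no read in any genotype. Of 16 floral organ genes 1 rose and 1 fell in the libraries labelled hda6/ldl1/2, and of 14 root genes 0 rose and 5 fell. Of 34 genes of the silencing machinery 3 rose and 4 fell in the libraries labelled hda6/ldl1/2, of 18 clock genes 3 rose, and of 14 polycomb genes 0 rose and 0 fell there. Over all genes with a fold change 8.61% rose and 6.4% fell in the libraries labelled hda6/ldl1/2, 3.58% fell in hda6 and 3.2% fell in ldl1/2. The part of cell makeup in the members' levels was not tested.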

How the data were processed

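Total RNA of seedlings was made into libraries with an Illumina TruSeq RNA kit, per the labels' protocols. Bowtie and TAIR10 are named in the submitters' processing notes, without versions; the counting tool and the authors' test are not given in the sources used here. The authors deposited 3 tables of a mutant with WT, each holding the larger group mean in RPKM, a signed fold change, its log2 value, p-values and an FDR. The unit RPKM was read from the values, as whole reads. Rose and fell are used only for a deposited FDR under 0.05.

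From these, exact library sizes and reads per library were recovered (relative tolerance 1e-10), and lower means were rebuilt from the deposited fold change. That rebuilding, checked on genes with up to 10 known WT reads, rounded to the right WT read count for at least 98.8%. The checked genes were among those used to fit it, and higher rebuilt counts, such as 36 for AT2G04190, were not checked. Rebuilt mutant counts were not checked either. The script was tested on simulated data. Genes were matched by position to TAIR10.1: 33349 genes matched 1 reference gene, 913 none, and all 19519 comparable locus names were equal. Relatives were found with BLAST 2.17.0, and tables were made with Python 3.11.15, numpy 2.4.6 and pandas 2.3.3. Centromere centres are approximate positions from general knowledge.

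The members and lists were chosen with earlier results of these data known. Named genes are the 10 highest in hda6/ldl1/2, the 5 highest in each separate mutant among those above WT, those with the smallest separate fold changes, those at the thresholds, list members and the targeted genes; other members are described beside them. A floor of 6 reads (3 read pairs) replaced a planned floor of 3 reads, since mates were counted separately; 3 reads were run as an alternative. Depth was 40.2 to 51.6 M reads per library.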

Additional observations from a re-analysis of the deposited data

How the results depend on the processing

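No paired analysis was possible because the deposited tables give group means and GEO lists 1 sample for each genotype. Of 33 alternatives, 21 kept their count within 1.5 times. Among these is the count above the sum of both separate rises with the WT mean set to 0, which the thresholds fix in advance. The number of members was 11 with a minimum of 2 RPKM and 158 with 0.5, and 18 with a ceiling of 0.25 RPKM and 140 with 1. Leaving out either library of hda6/ldl1/2 gave 33 to 41 members, and asking for 1 RPKM in both gave 20. A pseudocount of 0.1 RPKM left 12 members higher in hda6, 2 higher in ldl1/2 and 16 higher in neither, and one of 1 RPKM left 0 in hda6 and 0 in ldl1/2, since no separate level reached 0.5 RPKM. Asking for 5 reads gave 6 higher in ldl1/2 and 12 higher in neither. Leaving out the 6 members with an overlapping expressed gene or a near-identical copy gave 23 members, 19 higher in hda6, 9 in ldl1/2 and 2 in neither. This alternative, the library ones and the floor of 3 reads were chosen after seeing the data. On the log2 scale 27 members lay above the sum with a floor of 1 read and 28 with 3. Within 2 Mb of a centromere lay 12 members and within 5 Mb 18. At these levels a few reads decide each call in the separate mutants, and the depth does not show whether a member without reads is off there.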
